A study of Mus musculus with 6 samples.

Results

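The muscleblind genes Mbnl1, Mbnl2 and Mbnl3 were examined together with Rbm47 and 6 other genes of sequence-specific RNA-binding proteins, Celf1, Celf2, Qk, Rbfox2, Elavl1 and Khdrbs1. These 10 genes were taken by symbol from a table of 23358 rows, each symbol matched 1 row, and all 10 passed the filter on low counts. The set was drawn up around Mbnl3 and Rbm47, which were chosen by their log2 fold changes, among the largest falls in the comparison described here. Their differences are therefore given as a description with no test, and the other 8 genes were added by name as relatives or as proteins with related tasks.

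RNA was sequenced from mesenchymal stem cells grown out of the bone marrow of C57BL/6 mice and used at passage 6 to 12. The cells received either a non-targeting control siRNA (3 libraries) or an siRNA against Dia2 (3 libraries, 50 nM), with lipid transfection overnight and harvest 24 h after fresh medium was given. Dia2 is the protein of Diaph3, a formin that builds unbranched actin filaments, and no other allele or agent is named for either group. The knock-down rests on 1 stated siRNA sequence. Nothing in the labels says whether the 3 libraries of a group were separate cultures, so the p-values rest on library-to-library spread alone, possibly of technical origin.

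Library totals ranged from 70538768 to 110006338 counts, all even, so each fragment may have been entered as 2 counts. Diaph3 stood at 80.1 to 84.8 CPM (counts scaled to a common library size, with TMM factors) in the control libraries and at 7.39 to 8.37 CPM in the Dia2 libraries. Of 8 stromal markers 7 were tested and all 7 rose, beside 29.3% of all genes tested, with a summed level of 5526 to 6565 CPM in the control and 9360 to 9941 CPM in the Dia2 libraries. Thy1 lay near 0, at 0 to 10 counts per library. Epithelial markers summed to at most 0.833 CPM and endothelial markers to at most 2.2 CPM in any library, with Epcam and Emcn at 0. The 6 skeletal muscle markers summed to 46.1 to 53.8 CPM in the control and 52.8 to 55.6 CPM in the Dia2 libraries, nearly all of it from Des, the intermediate filament gene, with Myod1 and Myog at 0. The 5 neuronal markers summed to 9.05 to 11 and 18.8 to 20.5 CPM, nearly all from Tubb3, with Rbfox3 at 0. In bulk RNA, fewer cells of a type and less RNA per cell cannot be told apart.

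Muscleblind proteins carry zinc fingers and bind RNA at short clusters of GC dinucleotides flanked by pyrimidines, where they set the choice of alternative exons and poly(A) sites. CELF proteins bind GU-rich RNA and often act on the same exons in the opposite direction, a pair of roles best known from muscle and from myotonic dystrophy. Quaking, Rbfox2 and Khdrbs1 (Sam68) are further splicing regulators with their own recognition words, while Elavl1 (HuR) binds AU-rich 3′ UTRs and stabilises mRNAs. Rbm47 binds AU-rich and U-rich RNA, serves as a cofactor of the cytidine deaminase Apobec1, and is known from epithelium and myeloid cells. Gene totals measure how much of each mRNA was present and say nothing about the exons used.

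The 3 muscleblind genes moved in different directions. Mbnl3 was far lower with Dia2 siRNA, whereas Mbnl1 and Mbnl2 rose by less than 1.5-fold. Mbnl3, the X-linked member that is otherwise known for expression in immature muscle cells and placenta, lies on the minus strand of chromosome X (51113494 to 51205832, GRCm38). It stood at 201, 191 and 248 CPM in control replicates 1, 2 and 3 and at 43.9, 37.6 and 36.6 CPM with Dia2 siRNA. Every Dia2 library was thus far below every control library, and control replicate 3 stood above the other two controls. The means were 214 ± 30.4 and 39.4 ± 3.97 CPM (SD, n = 3 each), 5.43-fold lower with Dia2 siRNA (log2 fold change -2.44 ± 0.1, SE), which is the 35th lowest fitted value of the genes tested.

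Mbnl1, the most widely expressed muscleblind gene (chromosome 3, 60472830 to 60629748, plus strand), stood at 188, 182 and 227 CPM in the control libraries and at 294, 279 and 269 CPM in the Dia2 libraries. The groups did not overlap, and control replicate 3 was again the highest control. Its mean of 281 ± 12.4 CPM with Dia2 siRNA was 1.41-fold that of 199 ± 24.1 CPM in the controls, a rise of 0.50 ± 0.07 in log2 (edgeR adjusted p = 0.000102). Mbnl2, a close paralog prominent in brain (chromosome 14, 120275669 to 120431698, plus strand), stood at 116, 114 and 131 CPM in the control libraries and at 169, 162 and 159 CPM in the Dia2 libraries. All Dia2 values lay above all control values. Mbnl2 rose 1.36-fold (0.44 ± 0.06; edgeR adjusted p = 2.83e-05), a log2 change within 1 SE of that of Mbnl1. The longest exact stretch shared by annotated transcripts of these paralogs is 26 bases (Mbnl1 and Mbnl2), and 15 or 16 bases between Mbnl3 and either of them.

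Of the 8 genes not chosen for their fall, 7 passed an adjusted p of 0.05, 5 of them higher and 2 lower with Dia2 siRNA. In the same fit 59.2% of the 14151 genes tested passed, 29.3% higher and 29.9% lower, so calls were common throughout this comparison and nothing is read from the members' count. The groups did not overlap in 7 of these 8 genes, 5 higher and 2 lower, against 64.6% of all genes tested (32.3% higher and 32.2% lower). The median log2 fold change of the 8 genes was 0.27, beside 0.01 over all genes tested.

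**Figure D1:**
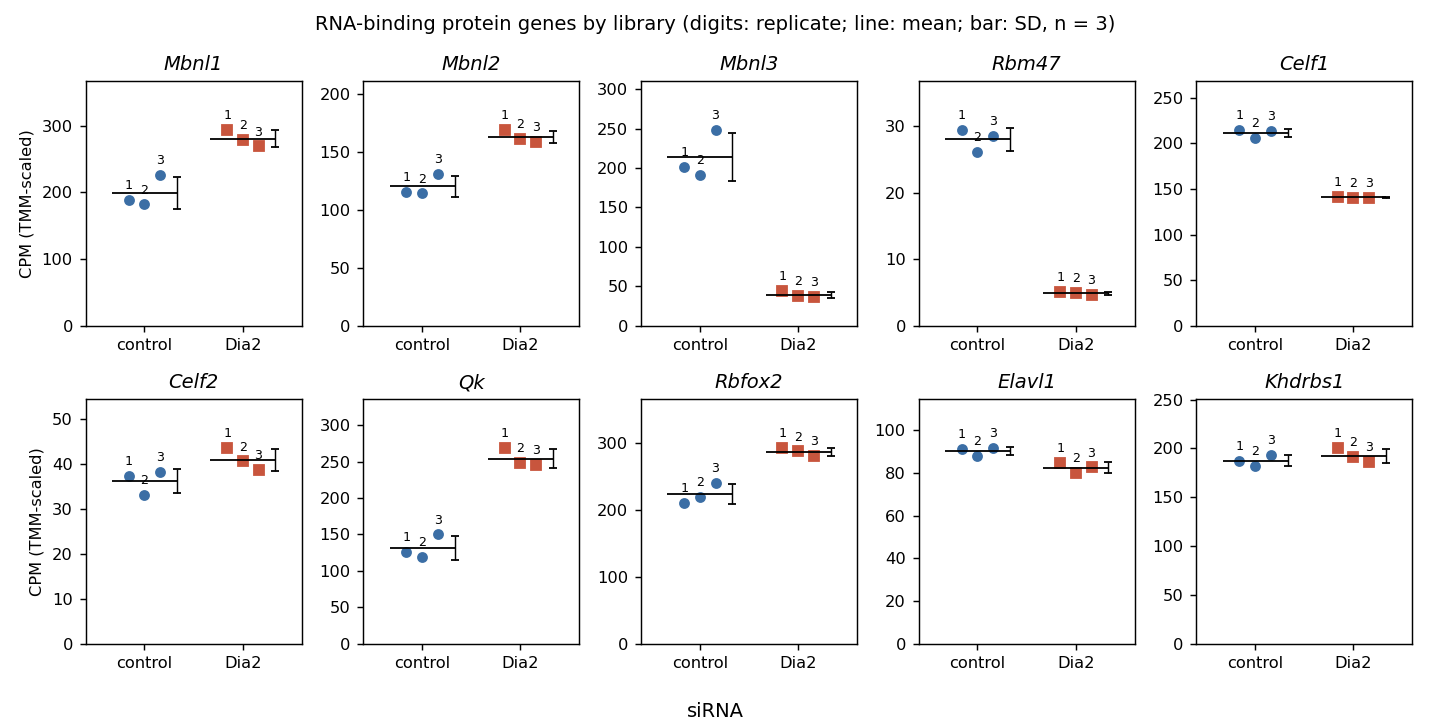
Level of each of the 10 genes in every library, in CPM scaled by TMM factors (y axis from 0, its range set per gene), with control libraries as circles and Dia2 libraries as squares, digits for the replicate, lines for means and bars for SD (n = 3). Mbnl3 and Rbm47 sit far lower in the Dia2 libraries, Mbnl1, Mbnl2, Qk and Rbfox2 sit higher, and the groups overlap for Khdrbs1.

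Because Mbnl3 was lower and its paralogs were higher, the makeup of the muscleblind pool differed more than its total. Levels of different genes are compared here by the deposited RPKM, which divides by a gene length. That length is labelled as coding, but at 4553 to 9878 bases for these 10 genes it far exceeds their longest annotated coding sequences of 978 to 1770 bases and so must take in untranslated exons. Mbnl3 made up 28.8% ± 0.813 of the summed muscleblind RPKM in the control libraries (range 28.1% to 29.7%) and 5.11% ± 0.301 in the Dia2 libraries (4.94% to 5.46%; SD, n = 3 each). Mbnl1 held 40.1% ± 0.312 and 54.5% ± 0.229 of the pool, and Mbnl2 31.1% ± 1.12 and 40.4% ± 0.409. The summed RPKM itself was 72.5 ± 4.97 in the control and 73.6 ± 0.195 in the Dia2 libraries, and the Dia2 range of 73.4 to 73.8 lay inside the control range of 68.8 to 78.2. On the scale of TMM-scaled CPM per kilobase the sums were 85.3 ± 9.65 and 88.7 ± 3.73 and the ranges also overlapped. Both sums divide Mbnl3 by its listed length of 8671 bases, the greatest of the 3, so the near-equal totals depend on the lengths used. These shares rest in part on Mbnl3, which was chosen for its fall, and were not tested.

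**Figure D2:**
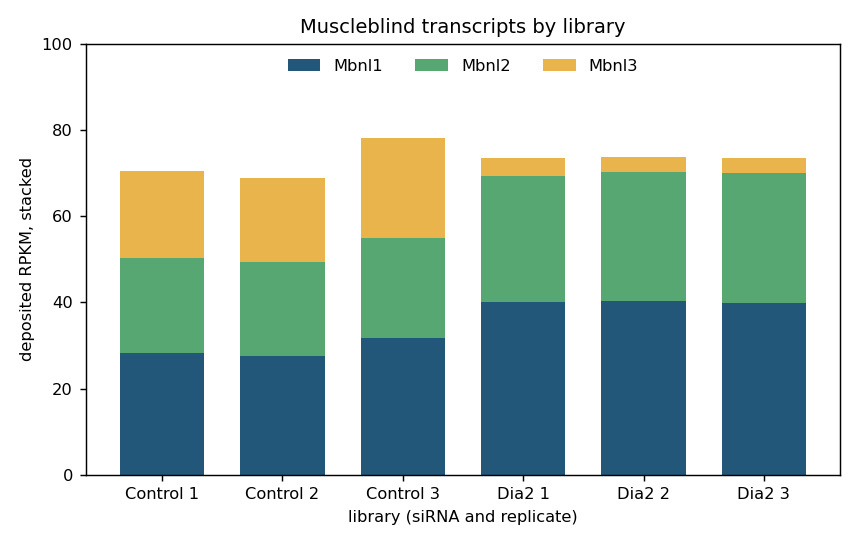
Deposited RPKM of Mbnl1, Mbnl2 and Mbnl3 stacked for each of the 6 libraries (y axis from 0). The Mbnl3 segment shrinks from 28.1% to 29.7% of the bar in control libraries to 4.94% to 5.46% in Dia2 libraries, while the bar heights of the Dia2 libraries fall within those of the control libraries.

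Rbm47 was the lowest-ranked of the 10 genes by fitted change and also one of the scarcest. The gene lies on the minus strand of chromosome 5 (66016557 to 66151924). Its levels were 29.5, 26.1 and 28.5 CPM in the control libraries and 5.08, 4.98 and 4.57 CPM in the Dia2 libraries, from 1966 to 3310 counts against 382 to 478. The 2 groups lay far apart, and the libraries within each were close together. Rbm47 was 5.76-fold lower (log2 fold change -2.52 ± 0.07, SE), from 28 ± 1.73 to 4.88 ± 0.266 CPM (SD, n = 3 each). Its partner Apobec1, which edits cytidine in RNA, fell slightly from 24.2 ± 0.611 to 21.2 ± 1.31 CPM (log2 fold change -0.19 ± 0.06; edgeR adjusted p = 0.0203). That call was lost without Dia2 replicate 2 (-0.15, adjusted p = 0.108) and with upper-quartile scaling (-0.16, adjusted p = 0.0513). A1cf and Rbm46, the closest relatives of Rbm47, were below the filter, with Rbm46 at 0 counts in every library.

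Blood and macrophage markers were scarce, and their sum was lower with Dia2 siRNA, but not every tested marker fell. The 12 markers summed to 20.9 to 22.9 CPM in the control libraries and to 13.1 to 14.4 CPM in the Dia2 libraries. Of 6 tested, 4 fell and none rose, beside 29.9% lower and 29.3% higher over all genes tested. The falls were in Cd53 (log2 fold change -2.34), Itgb2 (-1.57), Cd68 (-1.03) and Cd14 (-0.56). Csf1r (0.03) and Lyz2 (0.48) did not pass. The defining markers Tyrobp, Ptprc and Spi1 were at 0 to 8 counts per library. Epithelial markers, given above, were near 0 in both groups. The part of these cells in the Rbm47 values was not tested.

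The 3′ UTRs of the members hold short words that an earlier scan of these same fold changes had linked with genes that fell (TATGTGA and ATGTGAA) or rose (GCAGTAC). The words came from these same fold changes, with Mbnl3 and Rbm47 among the genes scanned. No match or direction in any member is therefore independent evidence. Of 13179 tested genes with an annotated 3′ UTR in GENCODE M21, 12.6% hold TATGTGA, 17.3% ATGTGAA and 5.75% GCAGTAC in the longest one (sense strand only; the first 2 words overlap by 6 bases). Among the 10 members, 5 hold TATGTGA, 4 ATGTGAA and 2 GCAGTAC, but their 3′ UTRs are long, with a median of 3978 bases beside 1184 over the tested genes. The TATGTGA windows of all 5 are shown because the word occurs both in the genes with the largest falls and in genes that rose; the matched word, with its further A where ATGTGAA overlaps it, is in capitals.
Mbnl3 (chrX:51120350-51120379, minus strand): gaacagaactaTATGTGActgaaaaatgtg
Rbm47 (chr5:66017955-66017984, minus strand): gaccaagaatgTATGTGAttatagacaaga
Mbnl1 (chr3:60627589-60627618, plus strand): ggtgaattttaTATGTGAttcttttgttca
Celf2 (chr2:6545785-6545814, minus strand): gaaatgcaaatTATGTGAAtggctcataga
Qk (chr17:10208350-10208379, minus strand): cagtcgcccagTATGTGAAaggagatatga
All windows are given 5′ to 3′ on the transcript strand in GRCm38. The longer form TATGTGAA thus stands in Qk and Celf2, both higher with Dia2 siRNA, while Mbnl3 and Rbm47, which were lower, and Mbnl1, which rose, hold TATGTGA alone at these sites. Rbm47 has a separate ATGTGAA further downstream. The 3′ UTR of Mbnl3 annotated in GENCODE ends at position 51117269, short of the gene end at 51113494 in the deposited table, and the stretch between them was not searched.

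The word GCAGTAC occurred once each in Celf1, which fell, and in Qk, which rose. The pair is shown, with the word in capitals, because the members that hold it moved in opposite directions.
Celf1 (chr2:91017831-91017860, plus strand): agggcaggcggGCAGTACttctgattaccc
Qk (chr17:10206719-10206748, minus strand): ccaattgttttGCAGTACtttattatattg
The word AACTTAA pairs with bases 2 to 8 of the strand complementary to the stated Dia2 siRNA. It occurred in the longest 3′ UTR of 4 members, and in 13.1% of the tested genes. With the long 3′ UTRs of the members, nothing is read from this count. Holders of the word lay on both sides of 0: Rbm47 was lower, while Celf2 and Qk rose. Any match in these letters is a description of the sequence and not a shown site of action.

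Celf1 and Celf2 differed in direction as well as in level. Celf1, which promotes decay of GU-rich mRNAs and alternative splicing (chromosome 2, 90940397 to 91019497, plus strand), stood at 215, 206 and 214 CPM in the control libraries and at 142, 140 and 140 CPM in the Dia2 libraries. The replicates were tight and the groups lay well apart. Celf1 fell 1.5-fold (log2 fold change -0.59 ± 0.04; edgeR adjusted p = 2.18e-07). Celf2, a paralog that is abundant in lymphocytes, heart and brain (chromosome 2, 6539699 to 7396198, minus strand), stood at 37.4, 33.2 and 38.3 CPM in the control and at 43.6, 40.6 and 38.7 CPM in the Dia2 libraries. The lowest Dia2 value and the highest control value almost touched. Its rise of 1.13-fold passed narrowly (0.17 ± 0.07; edgeR adjusted p = 0.0465). The call was lost without control replicate 1 (adjusted p = 0.068) or 2 (0.203), without Dia2 replicate 1 (0.187) or 2 (0.0919), with no composition factor (0.0689), and without Rn45s and Lars2 (0.0611, chosen after seeing the data), besides 1 more alternative given in the closing section. Celf2 took 12.6% ± 0.593 of the summed RPKM of the pair in the control and 19.6% ± 0.882 in the Dia2 libraries, while the sum went from 25.9 ± 0.95 to 18.2 ± 0.503 RPKM (SD, n = 3 each).

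Qk had the largest rise of the 10 genes. It encodes Quaking, a KH-domain protein of splicing, mRNA stability and circular RNA formation known from glia and smooth muscle (chromosome 17, 10206471 to 10319361, minus strand). Its levels were 126, 119 and 150.0 CPM in the control libraries and 268, 248 and 246 CPM in the Dia2 libraries. Even the highest control, replicate 3, stayed well below the lowest Dia2 library. Qk rose 1.93-fold, with means of 132 ± 16.2 and 254 ± 12.4 CPM (log2 fold change 0.95 ± 0.08; edgeR adjusted p = 5.31e-07).

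Rbfox2, which regulates splicing in mesenchymal and muscle cells through the word UGCAUG (chromosome 15, 77078990 to 77307053, minus strand), stood at 211, 220 and 240.0 CPM in the control and at 293, 288 and 281 CPM in the Dia2 libraries. It rose 1.28-fold (log2 fold change 0.36 ± 0.05; edgeR adjusted p = 9.03e-05), with no overlap between groups.

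Elavl1 and Khdrbs1, which are expressed in most cells, differed least. Elavl1 (chromosome 8, 4284782 to 4325100, minus strand) stood at 91.3, 88.1 and 91.6 CPM in the control and at 84.9, 80.1 and 82.6 CPM in the Dia2 libraries. The groups did not overlap but were only 1.09-fold apart (log2 fold change -0.13 ± 0.04; edgeR adjusted p = 0.023). The call was lost without Dia2 replicate 2 (adjusted p = 0.137) or 3 (0.0615) and with upper-quartile scaling (0.0796). Exons of the chemokine gene Ccl25 overlap those of Elavl1 on the other strand, as do exons of predicted genes at Mbnl2, Rbm47 and Celf2. The predicted gene Gm43323 also overlaps exons of Rbm47 on the same strand. Whether reads were counted by strand, or how shared reads were assigned, is not known here. Khdrbs1, a signal-responsive splicing factor (chromosome 4, 129703169 to 129742303, minus strand), stood at 187, 182 and 193 CPM in the control and at 200.3, 191 and 186 CPM in the Dia2 libraries. These values overlapped, and Khdrbs1 did not pass (0.04 ± 0.05; edgeR adjusted p = 0.512).

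**Figure D3:**
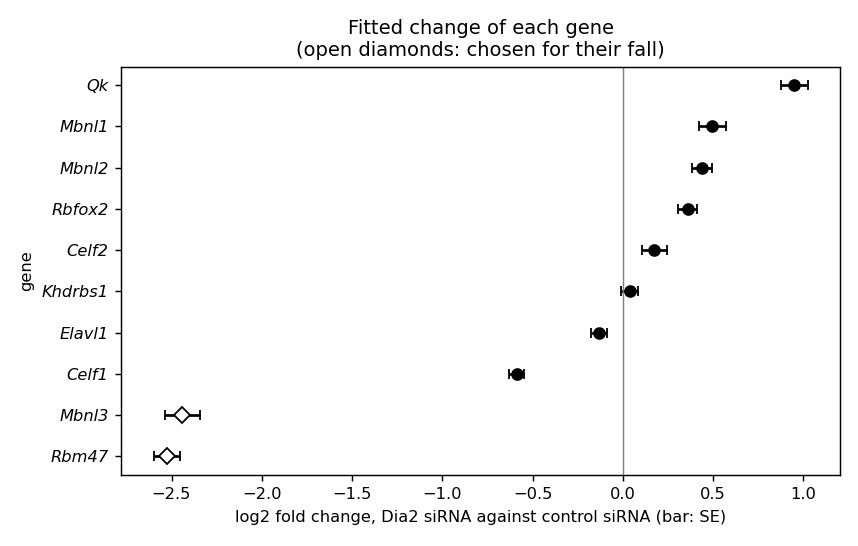
Fitted log2 fold change (x axis) of each gene with its SE as a bar, Dia2 siRNA against control siRNA. Open diamonds mark Mbnl3 (-2.44) and Rbm47 (-2.52), which were chosen for their falls; the other genes run from Celf1 at -0.59 to Qk at 0.95.

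The order of the levels by deposited RPKM differed between the groups. In the control libraries Khdrbs1 stood first at 33.4 ± 0.675 RPKM, followed by Mbnl1 (29.1 ± 2.23), Rbfox2 (25.9 ± 0.788), Celf1 (22.6 ± 0.858), Mbnl2 (22.5 ± 0.711) and Mbnl3 (20.9 ± 2.04; SD, n = 3 each). Celf1, Mbnl2 and Mbnl3 overlapped with their neighbours in this order. Elavl1 (12.8), Qk (11.3), Rbm47 (4.45) and Celf2 (3.25) followed without overlap. In the Dia2 libraries Mbnl1 stood first at 40.1 ± 0.239 RPKM and Qk had passed Celf1, at 21.3 ± 0.182 against 14.7 ± 0.563 RPKM. Mbnl3 stood at 3.76 ± 0.213 RPKM, close to Celf2 at 3.57 ± 0.0662, and Rbm47 was last at 0.754 ± 0.0236 RPKM.

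The order of the libraries within a group depended on the scale. In TMM-scaled CPM, control replicate 3 was the highest control library for 8 of the 10 genes, all but Celf1 and Rbm47, and Dia2 replicate 1 was the highest Dia2 library for all 10. Over all genes tested these libraries were highest in their group for 38% and 37.9%. In deposited RPKM they were highest for 5 and 3 of the 10 genes, beside 22.5% and 12.9% of all genes tested. Control replicate 3 and Dia2 replicate 1 are also the libraries richest in the ribosomal precursor Rn45s, which held 11.7% and 10.9% of their counts and 6.0% to 7.41% of the others. The part of Rn45s in the values was not tested. In a comparison without these 2 libraries, chosen after seeing the data, the log2 fold changes were 0.56 for Mbnl1, 0.47 for Mbnl2, 1.01 for Qk, 0.40 for Rbfox2, -0.59 for Celf1, -2.41 for Mbnl3 and -2.54 for Rbm47. The spread within groups was widest for Mbnl3, Qk and Mbnl1 in the control libraries (coefficients of variation of 14.2%, 12.3% and 12.1%) and narrowest for Celf1 in the Dia2 libraries (0.519%).

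The genes most like Mbnl3 and Rbm47 over the 6 libraries were other genes with falls of similar size. Likeness was the mean absolute difference of log2 CPM, each gene centred on its own mean, among 10653 genes with a mean of at least 2 CPM and no predicted or clone name. For genes with such falls this measure rests mainly on the difference between groups. Mbnl3 and Rbm47 were chosen by that difference, so their nearness to each other follows from the choice. Nearest to Mbnl3 were Atp5f1, a mitochondrial ATP synthase subunit (0.094), Rbm47 itself (0.112) and Lmnb1, lamin B1 (0.125). Nearest to Rbm47 were Lmnb1 (0.093), Marcksl1, a MARCKS-like actin-binding protein (0.097), and Mrap, the accessory protein of melanocortin receptors (0.099). Atp5f1 had 193 ± 4.44 and 39.8 ± 3.44 CPM, with tighter controls than Mbnl3.

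Among 15 close paralogs and partners, 8 passed the filter. Of these 1 was higher and 3 lower, beside 29.3% higher and 29.9% lower over all genes tested. The median log2 fold change of the 8 was 0.22, although most of the calls were falls. Nothing is read from these counts. Celf5, a CELF paralog otherwise typical of brain, stood at 2.42, 2.95 and 3.68 CPM in the control and at 12.8, 13.0 and 13.1 CPM in the Dia2 libraries. It was scarce in the controls and uniformly raised in the Dia2 libraries, 4.36-fold by the fit (log2 fold change 2.12 ± 0.12; edgeR adjusted p = 4.08e-08). Celf4, also typical of neurons, moved the other way, from 23.1 ± 2.23 to 15.6 ± 0.27 CPM (-0.56 ± 0.07; edgeR adjusted p = 3.53e-05). Sf1, the branch point binding protein and a KH-domain relative of Quaking, fell 1.27-fold from 208 ± 11.8 to 164 ± 2.59 CPM. Khdrbs3 (0.14 ± 0.07) and Celf3 (0.30 ± 0.21) did not pass. Khdrbs3 did pass without control replicate 2 (0.21, edgeR adjusted p = 0.0234) and with upper-quartile scaling (0.18, adjusted p = 0.0399). Of 5 neuronal markers Tubb3 alone passed the filter and rose from 9.94 ± 0.965 to 19.3 ± 0.865 CPM, beside Celf5, and their part in its rise was not tested. The neuronal paralogs Rbfox3 and Elavl4 were at 0 counts in every library.

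Of 42 tested genes of proteins that act on mRNA stability and translation, 13 were higher, 12 lower and 17 did not pass, with a median log2 fold change of -0.01. Fmr1, the gene of the translational repressor lost in fragile X syndrome, fell 2.4-fold from 138 ± 23.4 to 57.7 ± 4.53 CPM (edgeR adjusted p = 2.02e-06). Igf2bp2, which protects bound mRNAs, fell 2.16-fold from 102 ± 1.83 to 47.4 ± 0.977 CPM, and the stress granule protein gene G3bp1 fell 1.57-fold. Rbms3, an RNA-binding protein of mesenchyme, rose 2.03-fold from 19.8 ± 0.886 to 40.3 ± 1.02 CPM (edgeR adjusted p = 4.26e-08).

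Of 28 tested splicing regulators 5 were higher, 11 lower and 12 did not pass (median log2 fold change -0.13). Ptbp3, a polypyrimidine tract binding protein, rose 2.38-fold from 53.5 ± 6.81 to 127 ± 10.6 CPM (edgeR adjusted p = 1.42e-07). Rbpms2 and Rbpms, splicing regulators known from smooth muscle, fell 1.74-fold and 1.57-fold, and Rbm25, a spliceosome-associated protein, fell 1.71-fold.

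Genes whose mRNAs are known targets of these factors moved both ways. Of 21 tested genes with AU-rich mRNAs that Elavl1 is known to bind, 6 were higher and 11 lower (median -0.17). Ptgs2, the inducible cyclooxygenase, fell 2.36-fold from 69 ± 8.34 to 29.2 ± 0.926 CPM, Trp53, the gene of p53, fell 1.76-fold and Xiap, an inhibitor of apoptosis, 1.6-fold, while the anti-apoptotic Bcl2 rose 1.94-fold from 20.8 ± 1.44 to 40.3 ± 0.741 CPM. Of 26 tested genes with exons known to be set by muscleblind or CELF proteins, 10 were higher and 7 lower in total mRNA (median 0.14). Sorbs2 and Add3, cytoskeletal adaptors, rose 2.08-fold and 1.98-fold, the transcription factor gene Nfix rose 1.49-fold, and Bin1, which shapes membranes, fell 1.56-fold. In each of these lists the shares of calls stand beside the 29.3% higher and 29.9% lower over all genes tested, and nothing particular to a list is read from them.

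**Figure D4:**
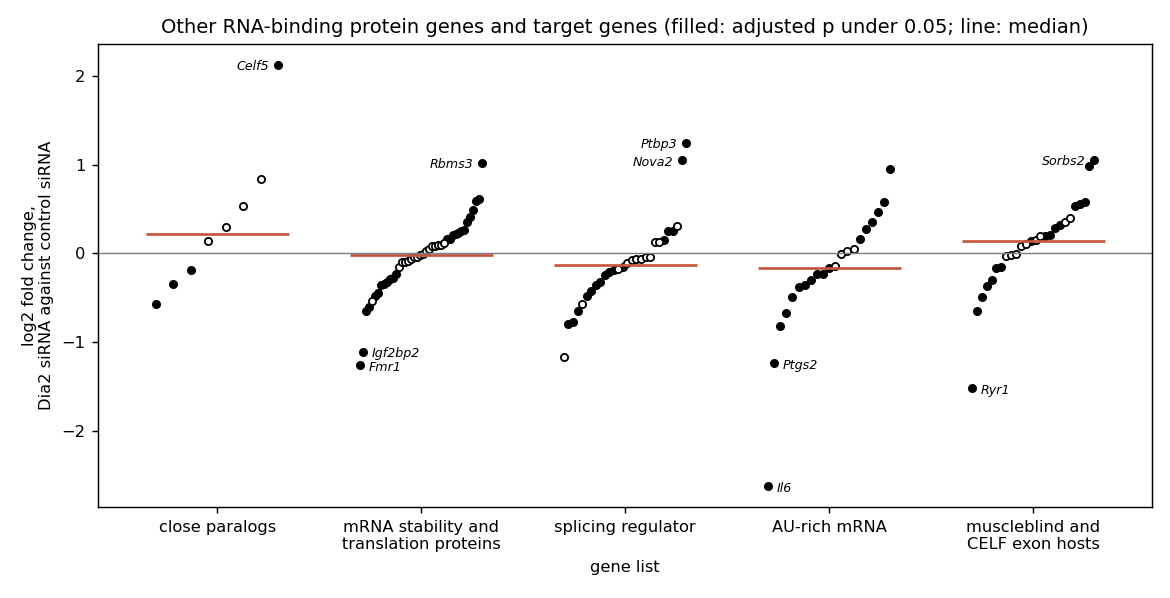
Log2 fold change (y axis) of every tested gene in 5 lists of RNA-binding proteins and target genes (x axis), sorted within each list, filled where the edgeR adjusted p was under 0.05, with the list's median as a line; the labelled Nova2, Il6 and Ryr1 had a mean below 1 CPM. Celf5 stands apart among the close paralogs at 2.12, and the medians run from -0.17 to 0.22.

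The recognition words of some of these factors were also counted in the longest 3′ UTR of the 10 genes, on the sense strand. The Rbfox word TGCATG occurred in 7 members (35.9% of tested genes), the core Quaking word ACTAAC in 6 (19.2%), the Pumilio word TGTANATA in 7 (26%) and the AU-rich word TATTTAT in 7 (30.2%). The members' 3′ UTRs are long, with a median of 3978 bases beside 1184 over the tested genes. Longer sequences hold more matches, so nothing is read from these counts. Qk held ACTAAC 2 times and TGCATG 4 times, and Elavl1 held TATTTAT 8 times, more than any other member. Rbfox2 held only the Pumilio word of these, although its 3′ UTR of 5172 bases is among the longer ones.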

How the data were processed

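Per the submitters' processing notes, bcl2fastq, TopHat2 2.0.6 and HTSeq were used, with hg19 and GRCh37 named as builds; the deposited table holds mouse genes, and 99.3% of its rows with a matching symbol overlapped that gene in GRCm38.p6, so positions were read as GRCm38. No source used here gives the annotation, strand setting or multi-mapping rule. The table holds, per the file headers, raw gene counts and RPKM values made by the authors; all tests used the deposited counts, and RPKM served for levels and shares. Each library's RPKM fits 1 total, of which listed genes hold 82.6% to 85.8%. Lengths and other values per gene are the authors'. A floor of 6 counts corresponds to 0.0545 to 0.0851 CPM and covers counting error only.

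Genes were filtered with filterByExpr. It asked for a CPM equal to 10 counts at the median library size, in as many libraries as the smaller group holds, and 15 counts in total. Genes were then scaled by TMM and tested with edgeR 4.0.16 (quasi-likelihood, robust, group only, with limma 3.58.1 and R 4.3.3). The Benjamini-Hochberg adjustment ran over 14151 genes. SE is the log2 fold change divided by the square root of F. In simulated data with 200 changed genes and 14048 tested, the procedure made 13 false calls and called 89% of the 2-fold changes. That setting held a far smaller share of changed genes than was called here, so scaling and error at such a share were not tested. Members and lists were chosen with earlier results of these data known. Named were Diaph3, all members, paralogs with a mean of at least 0.5 CPM, up to 4 called genes per other list (largest change, mean of at least 1 CPM) and the 3 genes nearest to Mbnl3 and to Rbm47. Cell type markers were taken from fixed lists, and others are named where few are counted. Alternatives were DESeq2 1.42.0, limma-voom, other scalings and filters, a replicate block and each library left out. Words were matched to GENCODE M21 transcripts.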

Additional observations from a re-analysis of the deposited data

How the results depend on the processing

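Over 37 named genes and 17 alternatives, 613 of 628 fitted values kept their direction and their side of the threshold, 13 lost a call (Celf2, Elavl1 and Apobec1), 2 gained one (Khdrbs3) and none reversed. Of the 10 members 9 were past the threshold and 7 to 9 over the alternatives, where Mbnl3 and Rbm47 count through the rule that chose them. The genes changed in all numbered 7343 to 9193 beside 8380. Log2 fold changes ranged from -2.53 to -2.32 for Mbnl3 and from -2.58 to -2.49 for Rbm47. From counts not divided by length, Mbnl3 made up 40.0% of the muscleblind pool in the control and 8.14% in the Dia2 libraries, since its listed length is the greatest of the 3. No effect shared by same-numbered replicates was seen (correlations of same-numbered deviations from -0.084 to 0.0036), which cannot show that the samples were unpaired. With the replicate block 7772 genes and 7 members passed; Celf2 (adjusted p = 0.0607) and Elavl1 (0.0657) did not. Of the 15 paralogs 7 were below the filter on counts and were not tested, 3 of them at 0 counts in every library. Halved counts and the fits without Rn45s were chosen after seeing the data.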
